A study of Mus musculus with 6 samples.

Results

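Amino acid transporter genes were examined in D2.OR mouse mammary tumor cells, a line known for staying dormant after it spreads, on Affymetrix Mouse Gene 2.0 ST arrays. The members were the genes of the Slc1, Slc3, Slc6, Slc7, Slc36, Slc38 and Slc43 families, found by their symbols, and each was read from a transcript cluster (a set of probes for 1 transcript) that carried 1 symbol alone. Where a gene had several such clusters, the one with the highest mean over the 6 arrays was kept. This gave 64 symbols of the 22180 genes measured in this way. Of these, 61 are transporters, with 7 in Slc1, 2 in Slc3, 19 in Slc6, 15 in Slc7, 4 in Slc36, 11 in Slc38 and 3 in Slc43. The other 3 (Slc7a6os, Slc36a1os and Slc6a19os) are opposite-strand neighbours that matched by name.

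The 3 groups of 2 arrays were BORG/sgTRIM28 cells, which overexpress the full-length mouse long noncoding RNA BORG and carry a CRISPR/Cas9 knockout of TRIM28; BORG cells, which overexpress BORG without the TRIM28 knockout; and parental cells, which carry the empty vector. TRIM28 is a chromatin corepressor. BORG was expressed from a transfected, G418-selected construct, and TRIM28 was targeted through a lentiviral Cas9 and guide vector with puromycin selection. The sources used here do not say whether the BORG and parental cells received a control guide, or whether the knockout was 1 clone. All cells had grown for 7 days in 3D-culture on a Cultrex basement membrane, and the labels call the arrays of a group biological replicates.

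Amino acid transporters set which amino acids a cell can take up, trade or release from its lysosomes. Slc3a2 (CD98 heavy chain) carries several Slc7 light chains to the cell surface, among them Slc7a5 (LAT1), which brings in leucine, and Slc7a11 (xCT), which brings in cystine for glutathione. Several of these genes, with enzymes of serine and cysteine synthesis and the tRNA synthetases, are known targets of ATF4, a transcription factor made when amino acids run short or the endoplasmic reticulum is stressed. In tumor cells, LAT1, ASCT2 (Slc1a5) and xCT are known for supplying growth and redox defence.

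Trim28 itself gave log2 signals of 9.50 and 9.53 in BORG/sgTRIM28 cells, 9.88 and 9.96 in BORG cells, and 10.49 and 10.68 in parental cells. This RNA signal was lowest in the knockout. The paper reports, for a guide it sequenced, an inserted base that shifts the frame and leaves a truncated TRIM28. The RNA signal thus does not measure how much of the protein was lost. The larger step was between BORG and parental cells, whose difference was called (-0.67 ± 0.12, SE, limma, adjusted p = 0.0271). That of BORG/sgTRIM28 minus BORG did not pass (-0.41 ± 0.12, limma, adjusted p = 0.0911). BORG/sgTRIM28 minus parental had the largest difference, with the same SE, and did not pass either (-1.07 ± 0.12, limma, adjusted p = 0.058). Adjustment was made within each comparison, and in this last one limma called only 20 clusters higher and 30 lower. In BORG minus parental it called 1702 and 1231. Missing the threshold thus does not make the knockout's difference from parental cells the less certain one. Array medians lay between 5.18 and 5.24. The BORG arrays were the least alike, with a standard deviation of the difference between their log2 signals of 0.339 over all clusters, against 0.299 in BORG/sgTRIM28 cells and 0.286 in parental cells. The epithelial keratins Krt8, Krt18 and Krt14 were measured in the range of 9.55 to 11.37. All were called higher in BORG than in parental cells, by 1.31, 1.49 and 1.32 on the log2 scale. The other epithelial markers, Epcam and Cdh1, were not called, with changes of 0.11 and 0.02, and Epcam stayed between 4.68 and 5.01. Of the 6 fibroblast markers, Col1a1 was called higher by 1.18 and Pdgfra lower (-1.25) in the same comparison. The other 4 (Col1a2, Dcn, Lum and Thy1) were not called in any comparison. In BORG/sgTRIM28 minus BORG, Krt8, Krt18, Krt14 and Col1a1 fell (-1.24, -1.10, -1.12 and -1.29) and Pdgfra rose by 0.99. Cdh1 ran against the keratins there, with a change of 0.41 ± 0.16 that did not pass (limma, adjusted p = 0.189). The adipocyte marker Fabp4 fell by 1.60 (limma, adjusted p = 0.013), the only 1 of 4 adipocyte markers called. Of 4 endothelial markers, 0 were called by limma in any comparison, with 1 lower in each at an unadjusted p under 0.05 and 1 higher by the t-test in BORG/sgTRIM28 minus BORG. Of the 6 leukocyte markers measured, 0 were called by limma in any comparison, also at an unadjusted p under 0.05, where the t-test gave 1 lower in BORG minus parental and 2 higher in BORG/sgTRIM28 minus BORG. The part of these shifts in the transporter values was not tested.

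In BORG cells against parental cells, the members split in both directions: Slc6a19, a neutral amino acid carrier best known from kidney and gut, rose, while Slc38a2, Slc7a11 and the neighbour gene Slc7a6os fell. At an adjusted p under 0.05 (limma, Benjamini-Hochberg over all 41345 clusters), 1 of 64 members was called higher, beside 5.75% of all genes, and 3 were called lower, beside 3.95% of all genes. In BORG/sgTRIM28 cells against BORG cells, 3 members rose (Slc38a2, Slc7a3 and Slc7a6os), beside 5.08% of all genes, and 4 fell (Slc6a19, Slc7a7, Slc7a6 and Slc38a10), beside 7.44% of all genes. In BORG/sgTRIM28 cells against parental cells, 0 members were called in either direction, beside 0.0676% of all genes called higher and 0.0947% called lower. The shares called among the members were thus close to or below those of all genes. The median log2 change of the members was -0.08 for BORG minus parental, 0.14 for BORG/sgTRIM28 minus BORG and 0.01 for BORG/sgTRIM28 minus parental, against -0.03, 0.06 and 0.01 over all genes. When only the brightest cluster of each gene was fitted, 5 members were called higher (Slc7a7, Slc38a3, Slc43a1 and Slc6a19os beside Slc6a19) and 5 lower (Slc3a2 and Slc7a3 beside the 3 above) in BORG minus parental, while 1986 genes were called higher and 1746 lower. The first 2 comparisons share the BORG arrays, so a value that stands apart in those arrays enters both with opposite sign.

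**Figure D1:**
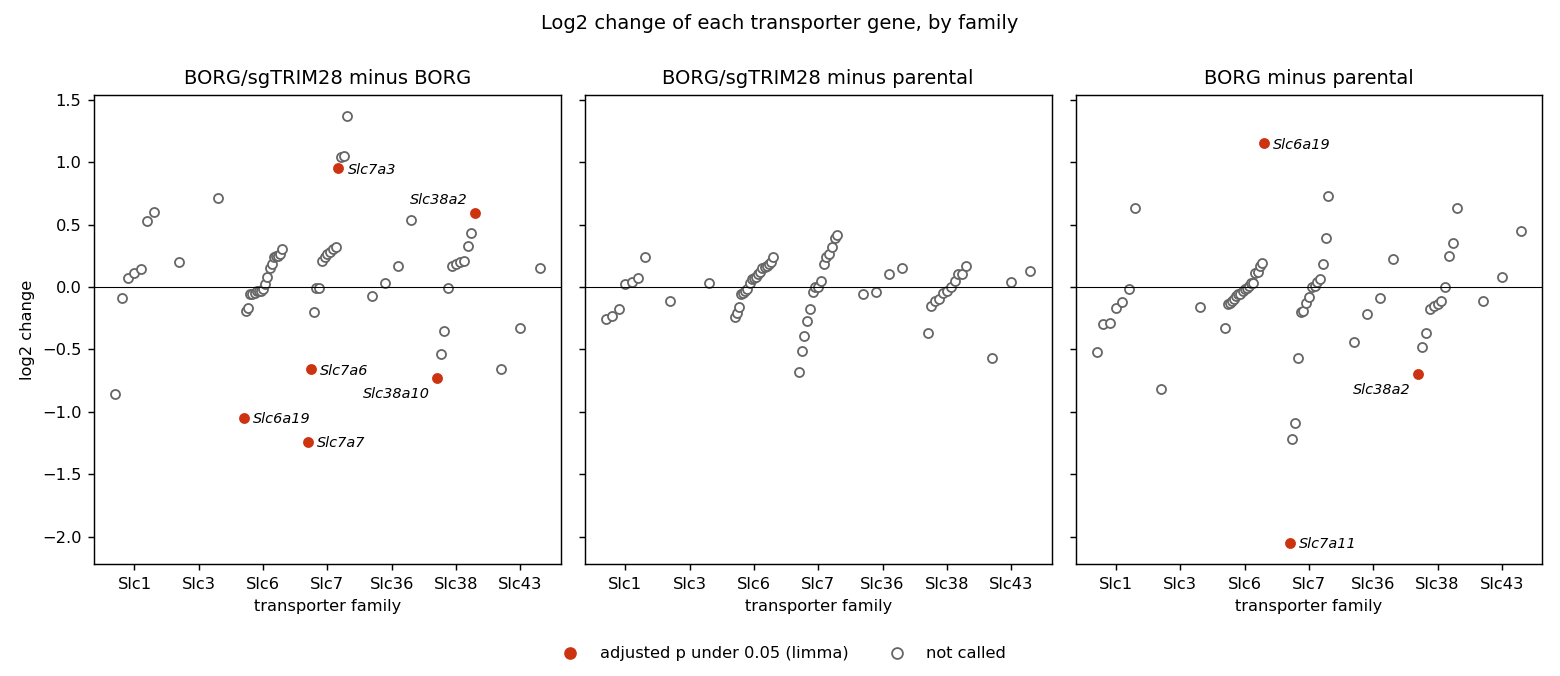
Log2 change (y axis) of each of the 61 transporter genes, grouped by family (x axis), in each of the 3 comparisons, with genes past an adjusted p of 0.05 filled and named. The filled genes lie on both sides of 0, Slc7 spans the range of -2.05 to 0.73 in BORG minus parental, and no gene is filled in BORG/sgTRIM28 minus parental.

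The cystine importer Slc7a11 had the largest log2 change of any member in BORG minus parental. Its log2 signal was 10.53 and 10.46 in BORG/sgTRIM28 cells, 8.38 and 9.86 in BORG cells, and 11.19 and 11.15 in parental cells. The groups did not overlap, and the spread between the BORG arrays (1.48) exceeded the gap from the higher one to either other group. Slc7a11 fell by 2.05 ± 0.44 in BORG minus parental (SE; limma, adjusted p = 0.0483). The change of 1.37 ± 0.44 in BORG/sgTRIM28 minus BORG did not pass (limma, adjusted p = 0.12). A second, dimmer Slc7a11 cluster read 3.89 and 3.97 in BORG/sgTRIM28 cells, 3.96 and 4.10 in BORG cells, and 5.10 and 4.83 in parental cells. That cluster also fell in BORG minus parental, by 0.93 ± 0.14 (limma, adjusted p = 0.016), but it did not differ between the BORG/sgTRIM28 and BORG arrays beyond their spread (-0.10 ± 0.14). For the brighter cluster, leaving out 1 array at a time put the adjusted p between 0.00847 and 0.199, and the call was lost without either BORG/sgTRIM28 array or either parental array.

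The promoter of Slc7a11 is shown because it holds a paired copy of TGATGNAA, the composite element read by C/EBP and ATF4 factors, within a short stretch before the start site. The windows run from 250 bases before to 50 bases after the RefSeq start (GRCm38.p6), are written along the gene's strand, and carry the matches in capitals. Slc1a4 and Slc7a7 are shown beside it, as genes with the same element whose values are given below. The windows are chr3:50443564-50443863 (minus strand) for Slc7a11, chr11:20332664-20332963 (minus strand) for Slc1a4 and chr14:54417895-54418194 (minus strand), 1 of several for Slc7a7.
Slc7a11: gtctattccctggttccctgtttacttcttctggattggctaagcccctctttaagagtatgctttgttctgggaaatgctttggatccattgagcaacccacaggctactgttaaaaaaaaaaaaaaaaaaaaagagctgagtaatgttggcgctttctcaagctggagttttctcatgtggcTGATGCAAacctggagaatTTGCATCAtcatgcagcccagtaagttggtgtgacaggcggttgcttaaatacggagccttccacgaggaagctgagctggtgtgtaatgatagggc
Slc1a4: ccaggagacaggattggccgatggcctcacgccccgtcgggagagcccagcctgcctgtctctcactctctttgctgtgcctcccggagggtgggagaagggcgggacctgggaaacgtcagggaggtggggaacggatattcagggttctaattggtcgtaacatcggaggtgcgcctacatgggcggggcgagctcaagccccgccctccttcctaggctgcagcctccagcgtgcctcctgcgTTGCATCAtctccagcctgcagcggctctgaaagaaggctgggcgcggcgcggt
Slc7a7: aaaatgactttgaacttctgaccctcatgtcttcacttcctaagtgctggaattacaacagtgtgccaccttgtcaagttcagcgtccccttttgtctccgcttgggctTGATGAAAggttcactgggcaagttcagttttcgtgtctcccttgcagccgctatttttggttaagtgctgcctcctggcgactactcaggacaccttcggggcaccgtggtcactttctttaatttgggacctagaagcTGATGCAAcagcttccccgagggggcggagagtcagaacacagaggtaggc
In Slc7a11 the matches begin 66 bases before the start on the gene's strand and 47 bases before it on the opposite strand. The match in Slc1a4 begins 4 bases before the start on the opposite strand, and those in the Slc7a7 window begin 141 bases and 1 base before it. RefSeq windows were at hand for 47 of the member genes (66 windows). On either strand, TGATGNAA was in 7.58% of these windows, from 4 genes (Slc7a11, Slc1a4, Slc7a7 and Slc6a21), against 3.97% of all 32851 windows. The Slc7a7 window shown overlaps another that holds the same TGATGCAA, 243 bases before its own start, so that site is counted in each. The antioxidant response core TGACNNNGC was in 15.2% of member windows against 12.4% of all. The hypoxia response core ACGTG was in 30.3% against 19.6%, and the E-box CACGTG, every copy of which also counts as ACGTG, in 13.6% against 7.15%. These are letter matches and not measured binding.

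Slc3a2, the heavy chain that Slc7a11 and Slc7a5 need at the surface, read 12.47 and 12.52 in BORG/sgTRIM28 cells, 11.47 and 12.12 in BORG cells, and 12.57 and 12.65 in parental cells. Both BORG arrays lay below the other 4. Its change of -0.82 ± 0.21 in BORG minus parental did not pass (SE; limma, adjusted p = 0.0827), nor did that of 0.71 ± 0.21 in BORG/sgTRIM28 minus BORG (limma, adjusted p = 0.105). The leucine exchanger Slc7a5 gave 12.28 and 12.30 in BORG/sgTRIM28 cells, 10.44 and 12.05 in BORG cells, and 12.29 and 12.38 in parental cells. One BORG array thus stood far below, and the other close to the remaining groups. Slc7a5 had changes of -1.09 ± 0.48 in BORG minus parental (limma, adjusted p = 0.258) and 1.05 ± 0.48 in BORG/sgTRIM28 minus BORG (limma, adjusted p = 0.251).

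Slc7a7 and Slc7a6, also light chains of CD98, were highest in BORG cells. Slc7a7 (y+LAT1), which trades arginine for neutral amino acids, gave 10.29 and 10.10 in BORG/sgTRIM28 cells, 11.71 and 11.17 in BORG cells, and 10.67 and 10.75 in parental cells. The BORG arrays were above and the BORG/sgTRIM28 arrays below those of parental cells. Slc7a7 fell by 1.24 ± 0.19 in BORG/sgTRIM28 minus BORG (SE; limma, adjusted p = 0.0164), and its 0.73 ± 0.19 in BORG minus parental did not pass (limma, adjusted p = 0.0862). Slc7a6 (y+LAT2), of the same function, read 9.90 and 9.86 in BORG/sgTRIM28 cells, 10.71 and 10.37 in BORG cells, and 10.13 and 10.16 in parental cells, the same order of groups. It fell by 0.66 ± 0.14 in BORG/sgTRIM28 minus BORG (limma, adjusted p = 0.0403). With 1 array left out, the Slc7a7 call held in 4 of 6 fits and was lost without either BORG/sgTRIM28 array, at an adjusted p of at most 0.0996. The Slc7a6 call held only without BORG replicate 2 (limma, adjusted p = 0.0233) and reached 0.167 in the other fits. Slc7a8 and Slc7a10, further partners of CD98, were not called in any comparison.

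Slc7a6os, the opposite-strand neighbour of Slc7a6 and not itself a transporter, had the reverse pattern. It read 9.16 and 9.44 in BORG/sgTRIM28 cells, 8.09 and 8.47 in BORG cells, and 9.31 and 9.44 in parental cells. The BORG arrays lay below the other 4, which overlapped. Slc7a6os fell by 1.10 ± 0.17 in BORG minus parental (SE; limma, adjusted p = 0.0197) and rose by 1.03 ± 0.17 in BORG/sgTRIM28 minus BORG (limma, adjusted p = 0.0204). Each call was kept in 3 of 6 fits with 1 array left out; the first was lost without BORG replicate 1 or either parental array, and the second without BORG replicate 1 or either BORG/sgTRIM28 array, with adjusted p values up to 0.13 and 0.112.

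Among the arginine and lysine carriers, Slc7a1 (CAT1) gave 11.08 and 11.05 in BORG/sgTRIM28 cells, 9.27 and 10.78 in BORG cells, and 11.24 and 11.25 in parental cells. Both BORG arrays were lowest, but they were 1.51 apart, and the changes of -1.22 ± 0.45 in BORG minus parental and 1.04 ± 0.45 in BORG/sgTRIM28 minus BORG did not pass (SE; limma, adjusted p = 0.185 and 0.23). Slc7a3 (CAT3), with a dim cluster, read 5.43 and 5.47 in BORG/sgTRIM28 cells, 4.67 and 4.33 in BORG cells, and 5.10 and 5.04 in parental cells. Here the BORG arrays were close together and lowest, and the BORG/sgTRIM28 arrays were highest. Slc7a3 rose by 0.95 ± 0.14 in BORG/sgTRIM28 minus BORG (limma, adjusted p = 0.0142), a call kept in 4 of 6 fits with 1 array left out and lost without either BORG/sgTRIM28 array (adjusted p up to 0.0888). Its -0.57 ± 0.14 in BORG minus parental did not pass (limma, adjusted p = 0.0742).

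**Figure D2:**
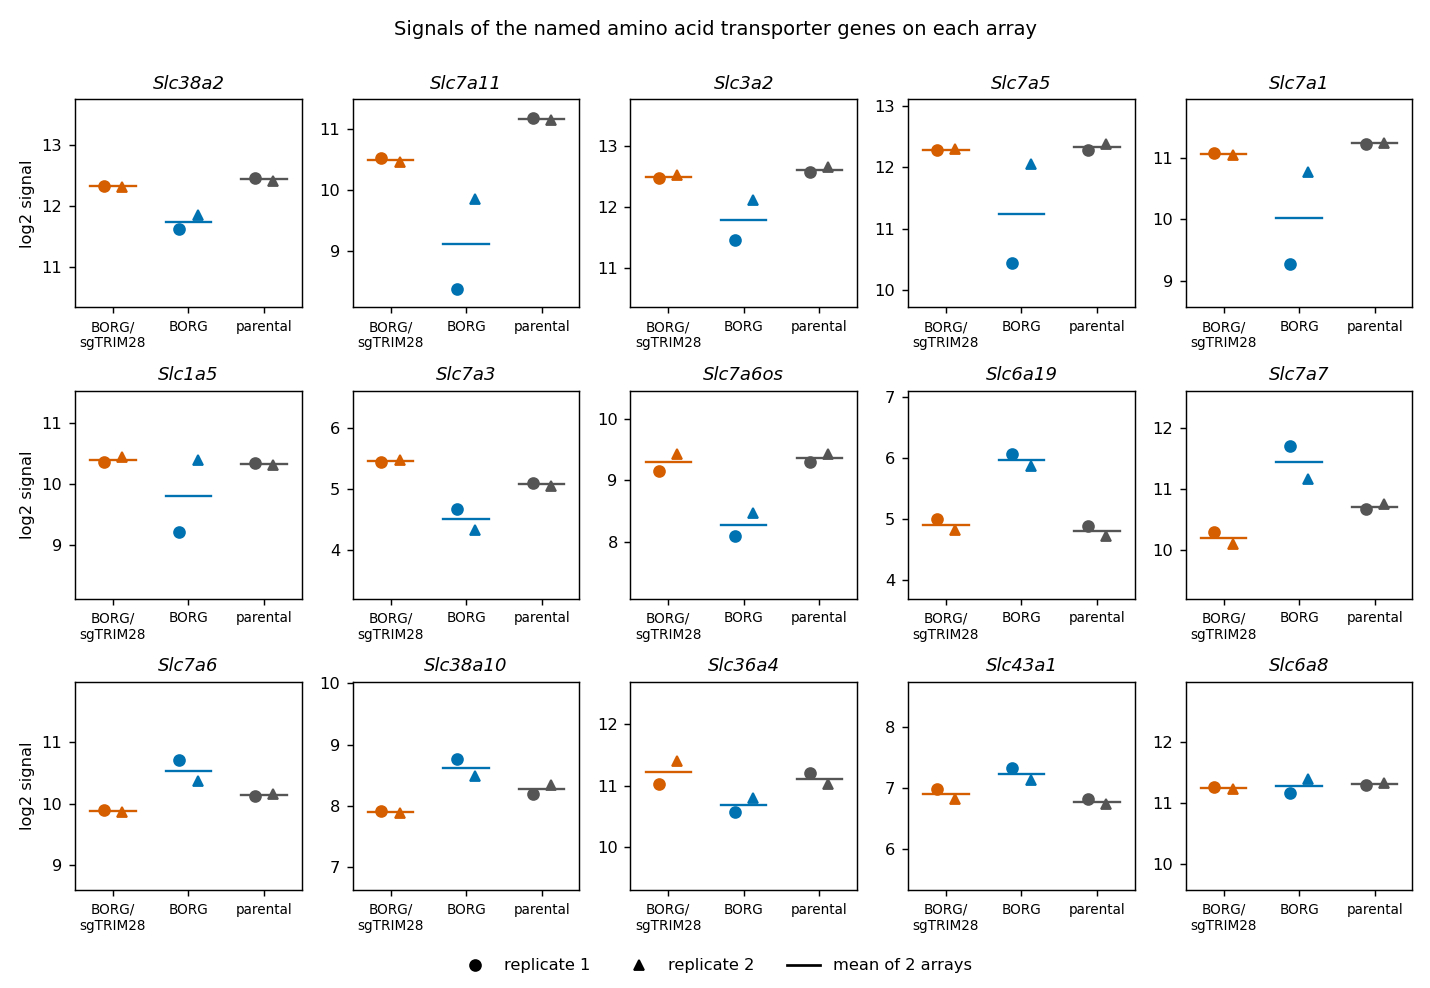
Log2 signal (y axis, spanning the same range in every panel) of 15 member genes on each array, for BORG/sgTRIM28, BORG and parental cells (x axis), with circles for replicate 1, triangles for replicate 2 and a line at the mean of the 2 arrays. For Slc7a11, Slc7a5, Slc7a1 and Slc1a5 the BORG arrays lie more than 1 log2 unit apart, while the BORG/sgTRIM28 and parental arrays nearly coincide.

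In the Slc38 family, Slc38a2 (SNAT2), a sodium-coupled importer of small neutral amino acids that cells make more of when amino acids are scarce, gave 12.33 and 12.32 in BORG/sgTRIM28 cells, 11.63 and 11.85 in BORG cells, and 12.46 and 12.42 in parental cells. The BORG arrays lay clearly below both other groups and near each other. Slc38a2 fell by 0.70 ± 0.12 in BORG minus parental (SE; limma, adjusted p = 0.0254) and rose by 0.59 ± 0.12 in BORG/sgTRIM28 minus BORG (limma, adjusted p = 0.0349). With 1 array left out, both calls were kept only without BORG replicate 2, and the adjusted p reached 0.146 and 0.157. Slc38a10 read 7.91 and 7.88 in BORG/sgTRIM28 cells, 8.76 and 8.48 in BORG cells, and 8.20 and 8.34 in parental cells. It fell by 0.73 ± 0.14 in BORG/sgTRIM28 minus BORG (limma, adjusted p = 0.0283), again a call kept only without BORG replicate 2, with adjusted p up to 0.135 in the other fits. A second, dimmer Slc38a10 cluster had a change of 0.13 ± 0.18 in that comparison. Over the 11 genes of the family, 1 was called higher and 1 lower in BORG/sgTRIM28 minus BORG, and the medians were 0.18 there and -0.14 in BORG minus parental. The lysosomal arginine sensor Slc38a9 stayed between 7.42 and 7.71 on every array.

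The Slc6 family, which carries amino acids, creatine, taurine and neurotransmitters, had 1 gene that moved among its 19. Slc6a19 (B0AT1) gave 5.00 and 4.82 in BORG/sgTRIM28 cells, 6.06 and 5.86 in BORG cells, and 4.89 and 4.73 in parental cells. The BORG arrays stood about 1 log2 unit above the other 4, which overlapped. The signal of Slc6a19 was dim, and on those 4 arrays it lay below the array medians (5.18 to 5.24). Slc6a19 rose by 1.15 ± 0.14 in BORG minus parental (SE; limma, adjusted p = 0.0085) and fell by 1.05 ± 0.14 in BORG/sgTRIM28 minus BORG (limma, adjusted p = 0.00901). Each call was kept in 4 of 6 fits with 1 array left out. The first was lost without either parental array (adjusted p up to 0.0761), and the second without BORG replicate 1 or BORG/sgTRIM28 replicate 2 (up to 0.0671). Slc6a19os, on the opposite strand, had changes of 0.51 ± 0.13 and -0.53 ± 0.13 that did not pass (limma, adjusted p = 0.0753 and 0.0598). The creatine carrier Slc6a8, the brightest cluster of the family, lay between 11.16 and 11.38 on every array, and the other Slc6 transporters had changes between -0.33 and 0.19 in BORG minus parental. Slc6a20a and Slc6a20b are near-identical copies whose probes may share signal.

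In the Slc1 family, the glutamine exchanger Slc1a5 (ASCT2) read 10.36 and 10.44 in BORG/sgTRIM28 cells, 9.21 and 10.40 in BORG cells, and 10.34 and 10.31 in parental cells. Only 1 of the BORG arrays departed from the other groups, and the change of -0.52 ± 0.36 in BORG minus parental did not pass (SE, limma, adjusted p = 0.49). A second, dimmer Slc1a5 cluster lay between 5.81 and 6.22 on every array, with a change of 0.07 ± 0.17 in that comparison. The serine and alanine exchanger Slc1a4 (ASCT1) gave 9.81 and 9.68 in BORG/sgTRIM28 cells, 8.64 and 9.79 in BORG cells, and 9.44 and 9.58 in parental cells, so that the groups overlapped. Slc1a7, a glutamate transporter of the retina, read 5.09 and 5.41 in BORG/sgTRIM28 cells, 5.55 and 6.66 in BORG cells, and 5.41 and 5.55 in parental cells, so that the high array was BORG replicate 2. Of the 7 genes of the family, 0 were called by limma in any comparison. At an unadjusted p under 0.05 limma gave Slc1a7 alone, lower in BORG/sgTRIM28 minus BORG (-0.86 ± 0.35), and the t-test gave 0.

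The Slc36 and Slc43 families had no calls by limma in the clusters kept. Slc36a4, the brightest of Slc36, read 11.03 and 11.41 in BORG/sgTRIM28 cells, 10.57 and 10.79 in BORG cells, and 11.21 and 11.02 in parental cells, with changes of -0.44 ± 0.17 in BORG minus parental and 0.54 ± 0.17 in BORG/sgTRIM28 minus BORG (SE; limma, adjusted p = 0.209 and 0.118). A second, dimmer Slc36a4 cluster ran the opposite way, at 5.39 and 5.23 in BORG/sgTRIM28 cells, 6.50 and 5.98 in BORG cells, and 5.43 and 5.49 in parental cells. That cluster fell by 0.93 ± 0.19 in BORG/sgTRIM28 minus BORG (limma, adjusted p = 0.0347), so these arrays give no single direction for the gene. The leucine facilitators Slc43a1 (LAT3) and Slc43a2 (LAT4) were not called. Slc43a1 gave 6.98 and 6.82 in BORG/sgTRIM28 cells, 7.32 and 7.13 in BORG cells, and 6.82 and 6.73 in parental cells, with the BORG arrays above the others (0.45 ± 0.13 in BORG minus parental; limma, adjusted p = 0.098).

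The BORG arrays differed from each other in a set of transporters. In 6 of 64 members (9.38%) they lay at least 1 log2 unit apart, beside 0.717% of all genes, and BORG replicate 1 was the lower in each: Slc7a5 by 1.61, Slc7a1 by 1.51, Slc7a11 by 1.48, Slc1a5 by 1.20, Slc1a4 by 1.15 and Slc1a7 by 1.11. No member was that far apart between the BORG/sgTRIM28 arrays or the parental arrays (0.0676% and 0.0812% of all genes). All 6 were among the transporters at or above the median signal (6 of 33). Of the genes of amino acid synthesis, 6 of 16 were at least 1 log2 unit apart with BORG replicate 1 lower in each. The same held for 6 of 16 ATF4 response regulators, 2 of 18 aminoacyl-tRNA synthetases and 2 of 12 breakdown genes (Bcat1 and Odc1). The breakdown list is named for glutamine and branched chain amino acids. It also holds Arg1, Arg2, Oat, Prodh and Odc1, which act on arginine, ornithine or proline. In the mTORC1 amino acid sensing list, Castor2 was 1.06 apart with BORG replicate 1 the higher. The median of BORG replicate 1 minus replicate 2 was -0.34 for synthesis, -0.79 for the ATF4 regulators and -0.69 for the synthetases, against 0.00 for the breakdown genes, 0.04 for the genes of mTORC1 amino acid sensing, -0.04 for glutathione synthesis and 0.01 over all genes. The widest gap was that of Cth, which makes cysteine from cystathionine, at 10.83 and 10.85 in BORG/sgTRIM28 cells, 6.64 and 9.49 in BORG cells, and 10.72 and 10.70 in parental cells. Cth, Slc1a4, Slc1a7, Bcat1, Odc1 and Castor2 are named for this pattern after their values were seen.

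**Figure D3:**
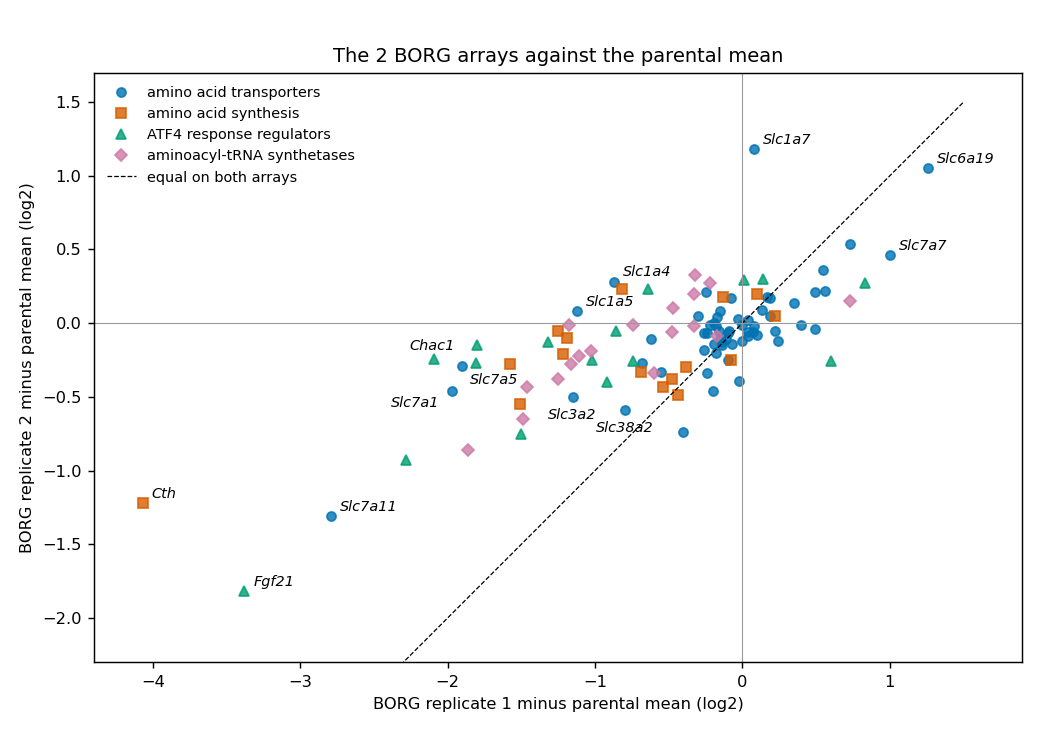
Log2 signal of BORG replicate 1 (x axis) and BORG replicate 2 (y axis), each minus the parental mean, for the 61 transporters (circles) and the genes of amino acid synthesis (squares), ATF4 response (triangles) and tRNA synthetases (diamonds), with a dashed line where both arrays are equal. Slc7a11, Cth and Fgf21 are below 0 on both arrays but lower on replicate 1, Slc7a5, Slc1a5 and Chac1 lie far to the left with replicate 2 nearer 0, and Slc6a19 lies near the dashed line.

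The changes differed with the BORG array left in. With BORG replicate 1 alone, BORG minus parental was -1.90 for Slc7a5, -1.97 for Slc7a1, -1.15 for Slc3a2 and -1.12 for Slc1a5. With BORG replicate 2 alone, these changes were -0.29, -0.46, -0.50 and 0.08. Slc7a11 was at -2.79 and -1.31 on the 2 arrays. Over all clusters, limma called fewer without BORG replicate 1 and more without BORG replicate 2 than with all arrays. This held in both directions and in both comparisons that use BORG cells. In the fits without 1 BORG array, the lone BORG array was taken to vary like the other groups. Leaving out a parental or a BORG/sgTRIM28 array also lowered the number of all clusters called in BORG minus parental, in both directions. A member call lost in such a fit is thus not particular to the transporters. Of the 11 calls made on members with all arrays, 11 were kept without BORG replicate 2 and 4 without BORG replicate 1. Without 1 or the other BORG/sgTRIM28 array, 3 and 2 calls were kept, and without either parental array 4 were kept.

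In BORG/sgTRIM28 cells against parental cells, limma called 0 of 64 members at an adjusted p under 0.05. At an unadjusted p under 0.05, limma gave 2 higher (Slc7a15 by 0.42 and Slc7a3 by 0.39) and 4 lower (Slc43a2, Slc7a7, Slc7a12 and Slc38a10), and Student's two-tailed test, named in the study's methods, gave 2 higher and 7 lower, with 0 after adjustment. Over all genes the shares at that unadjusted threshold were 3.84% higher and 4.31% lower by limma, and 5.87% and 6.54% by the t-test. The changes of all members lay between -0.68 and 0.42. The lowest was that of Slc7a11, whose BORG/sgTRIM28 arrays were both below the parental arrays (-0.68 ± 0.44; SE; limma, adjusted p = 0.733). When the BORG arrays did not enter the fit, its standard error was 0.09 and the adjusted p 0.186. The dimmer Slc7a11 cluster had -1.03 ± 0.14 (limma, adjusted p = 0.0916). Slc7a5, Slc3a2, Slc1a5 and Slc38a2 were within -0.11 to 0.07. A value that misses the threshold with 2 arrays a group does not show that these cells were alike.

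Other genes of amino acid supply were read from the same fit, and their counts stand beside the shares of all genes called (5.75% higher and 3.95% lower in BORG minus parental, 5.08% higher and 7.44% lower in BORG/sgTRIM28 minus BORG). At an unadjusted p under 0.05, 13.2% of all genes were lower in BORG minus parental by limma and 9.81% by the t-test. Of 16 genes of amino acid synthesis, 0 were called by limma in BORG minus parental (7 lower at an unadjusted p under 0.05, and 2 by the t-test, with a median of -0.48), and 2 rose in BORG/sgTRIM28 minus BORG (median 0.58). These were Cbs, the first enzyme that turns homocysteine towards cysteine, by 1.49 ± 0.13 (SE; limma, adjusted p = 0.00266), and Shmt1, the cytosolic serine-to-glycine enzyme, by 0.66 ± 0.11 (limma, adjusted p = 0.0196). Cbs read 6.97 and 7.02 in BORG/sgTRIM28 cells, 5.45 and 5.55 in BORG cells, and 5.49 and 5.22 in parental cells. It was thus high in the BORG/sgTRIM28 arrays alone, and it also rose in BORG/sgTRIM28 minus parental, by 1.64 (limma, adjusted p = 0.0244). The call against BORG cells was kept whichever array was left out, and that against parental cells was lost in each such fit (adjusted p from 0.0994 to 0.232). The values of the synthesis list also depended on the BORG array, with a median of replicate 1 minus replicate 2 of -0.34. With only the brightest cluster of each gene fitted, 4 synthesis genes were called lower in BORG minus parental and 7 higher in BORG/sgTRIM28 minus BORG. With the mean of each gene's clusters 4 and 5 were. More of all 22180 genes were also called in these fits. The brightest clusters gave 1986 higher and 1746 lower in BORG minus parental, and 2027 and 2292 in BORG/sgTRIM28 minus BORG. The mean of clusters gave 1719 lower in the first and 2000 higher in the second. The brightest-cluster counts of the other lists stand beside these.

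Of 16 ATF4 response regulators, 2 fell in BORG minus parental (median -0.65), and 3 rose and 1 fell in BORG/sgTRIM28 minus BORG (median 0.55). Fgf21, a secreted factor made under amino acid shortage, gave 8.89 and 9.01 in BORG/sgTRIM28 cells, 5.97 and 7.54 in BORG cells, and 9.24 and 9.47 in parental cells. Both BORG arrays were lowest, 1.57 apart. Fgf21 fell by 2.60 ± 0.47 in BORG minus parental (SE; limma, adjusted p = 0.0298) and rose by 2.19 ± 0.47 in BORG/sgTRIM28 minus BORG (limma, adjusted p = 0.0408). The transcription factor Atf5 fell by 1.13 and rose by 1.28 in the same comparisons, and Atf3 rose by 1.92 in BORG/sgTRIM28 minus BORG. Eif2ak4 (GCN2), the kinase that senses uncharged tRNA, fell by 0.88 in BORG/sgTRIM28 minus BORG. These calls were kept in 1 or 2 of 6 fits with 1 array left out. Against the parental mean, Fgf21 was at -3.38 on BORG replicate 1 and -1.82 on BORG replicate 2, and Atf5 at -1.50 and -0.75. With only the brightest clusters, or the mean of clusters, 4 regulators were called lower in BORG minus parental. Of 18 aminoacyl-tRNA synthetases, 0 were called by limma in BORG minus parental (6 lower at an unadjusted p under 0.05, and 0 by the t-test, with a median of -0.42), and Rars, for arginine, rose by 1.39 in BORG/sgTRIM28 minus BORG (limma, adjusted p = 0.044), a call kept in 2 of 6 fits. With only the brightest clusters, 3 synthetases were called lower in BORG minus parental and 4 higher in BORG/sgTRIM28 minus BORG.

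Genes of mTORC1 amino acid sensing, the machinery on the lysosome that turns growth on when amino acids are present, included calls in both directions. Of 33 measured, 4 rose and 4 fell in BORG minus parental (median -0.08), beside 5.75% of all genes called higher and 3.95% called lower. In BORG/sgTRIM28 minus BORG, 3 rose and 2 fell (median 0.04), beside 5.08% and 7.44%. The shares of the list were thus above those of all genes, except for the genes that fell in BORG/sgTRIM28 minus BORG. The excess was not tested. With only the brightest clusters, 5 rose and 5 fell in BORG minus parental, and 6 rose and 4 fell in BORG/sgTRIM28 minus BORG. Rragd, a Rag GTPase that recruits mTORC1, gave 7.64 and 7.65 in BORG/sgTRIM28 cells, 4.99 and 5.54 in BORG cells, and 7.39 and 7.34 in parental cells. The BORG arrays lay far below both other groups. Rragd fell by 2.09 ± 0.19 in BORG minus parental (SE; limma, adjusted p = 0.0037) and rose by 2.37 ± 0.19 in BORG/sgTRIM28 minus BORG (limma, adjusted p = 0.00194), and both calls held whichever array was left out. Flcn and Fnip1, partners in the complex that acts on Rragc and Rragd, fell by 0.68 and 0.66 in BORG minus parental and rose by 0.84 and 0.75 in BORG/sgTRIM28 minus BORG. Castor1, the cytosolic arginine sensor that restrains mTORC1, read 5.97 and 6.07 in BORG/sgTRIM28 cells, 7.66 and 7.22 in BORG cells, and 6.07 and 6.05 in parental cells, and it rose by 1.38 ± 0.16 in BORG minus parental (limma, adjusted p = 0.00878) and fell by 1.42 ± 0.16 in BORG/sgTRIM28 minus BORG (limma, adjusted p = 0.00632). Tsc2, which restrains mTORC1, and Mtor, its kinase, rose by 0.70 and 0.65 in BORG minus parental. With 1 array left out, these calls of Flcn, Fnip1, Castor1, Tsc2 and Mtor were kept in 1 to 5 of 6 fits. Against the parental mean, Castor1 was at 1.60 on BORG replicate 1 and 1.16 on BORG replicate 2, and Rragd at -2.37 and -1.82.

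The remaining lists held genes of glutathione synthesis, amino acid breakdown and other amino acid carriers. Of 6 genes of glutathione synthesis, Gclc, the catalytic subunit of the rate-limiting ligase, fell by 0.65 in BORG minus parental (limma, adjusted p = 0.044) and rose by 0.81 in BORG/sgTRIM28 minus BORG (limma, adjusted p = 0.0194), where its partner Gclm rose by 0.64. Of the 12 genes of the breakdown list, which mixes glutamine and branched chain genes with those of arginine, ornithine and proline, 1 was called. Bckdk, the kinase that holds back branched chain oxidation, rose by 0.92 in BORG minus parental (limma, adjusted p = 0.0142). It fell by 0.91 in BORG/sgTRIM28 minus BORG (limma, adjusted p = 0.012). Of 21 other amino acid carriers, Slc25a44 and Slc25a38, mitochondrial carriers of branched chain amino acids and of glycine, fell by 0.62 and 0.51 in BORG minus parental and rose by 0.79 and 0.47 in BORG/sgTRIM28 minus BORG. These calls were kept in 0 to 3 of 6 fits with 1 array left out. With only the brightest clusters, 4 glutathione genes were called lower in BORG minus parental, beside 1746 of all 22180 genes. In that fit 4 of the other carriers were called higher in BORG/sgTRIM28 minus BORG, beside 2027 of all genes.

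**Figure D4:**
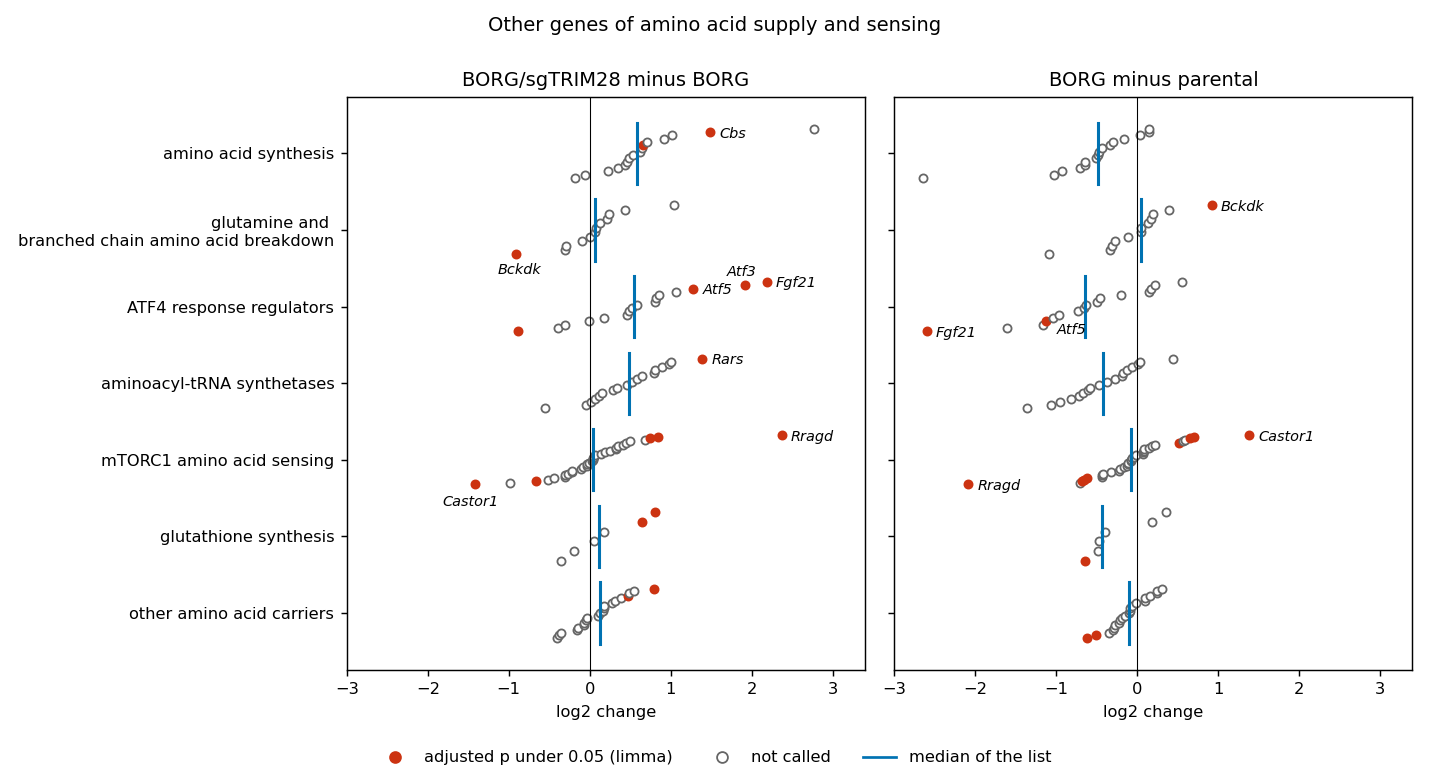
Log2 change (x axis) of each gene of 7 lists of amino acid supply and sensing (rows), in BORG/sgTRIM28 minus BORG and BORG minus parental, with genes past an adjusted p of 0.05 filled, larger ones named, and a bar at the median of each list. The medians of amino acid synthesis, ATF4 response and tRNA synthetases lie between 0.49 and 0.58 on the left and between -0.65 and -0.42 on the right, while mTORC1 sensing has medians near 0 with filled genes on both sides.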

How the data were processed

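RNA of the 6 cultures was hybridised by the authors to Affymetrix Mouse Gene 2.0 ST arrays. They deposited 1 log2 signal for each transcript cluster and array, made by the authors with Affymetrix Expression Console and Transcriptome Analysis Console. The labels and methods state neither the summarisation and normalization settings nor the signal over background, so no filter on dim clusters was set and dim clusters are reported as measured. Clusters were named by the platform annotation (23521 with 1 symbol, 1820 with several, 16004 with none), and all 64 member symbols matched RefSeq by Entrez ID. Slc6a9, found only on a cluster with several symbols, was left out.

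Group means over all 6 arrays were fitted with limma 3.58.1 in R 4.3.3 (residual degrees of freedom 3, prior 3.036). The p values were adjusted by Benjamini-Hochberg across 41345 clusters. The fit was also tested on simulated data in which all groups shared the same spread in a cluster. That test does not cover the wider spread of the BORG arrays. The number of arrays limits the precision: 2 against 2 allows an exact permutation p of 0.333 at the smallest. Members named were those called, the brightest of each family, Slc3a2, Slc7a5, Slc7a11, Slc1a5, Slc38a2, Slc7a1 and Trim28, and from each list up to 4 called genes with the largest change. Others are named to complete a family or a small count, after their values were seen. The members and lists were chosen with earlier results of these data known. Alternatives covered the arrays in the fit, the variance model, scaling, choice of cluster and the test.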

Additional observations from a re-analysis of the deposited data

How the results depend on the processing

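No call on a member turned its sign under the alternatives tried, but each of the 11 calls was lost under the t-test after adjustment. That test called 0 of all 41345 clusters in each comparison, so this loss is not particular to the members. Among the 15 named members with full values, changes that were not called turned sign for 5 genes; the other members were not tallied. With the mean of its clusters, Slc36a4 was at 0.17 in BORG minus parental, -0.20 in BORG/sgTRIM28 minus BORG and -0.03 in BORG/sgTRIM28 minus parental. The other turns came from leaving out 1 array. In BORG minus parental, Slc1a5 then lay between -1.12 and 0.08 and Slc6a8 between -0.15 and 0.08. In BORG/sgTRIM28 minus BORG, Slc1a5 lay between 0.00 and 1.19 and Slc6a8 between -0.14 and 0.08. In BORG/sgTRIM28 minus parental, Slc36a4 lay between -0.09 and 0.29, Slc7a6os between -0.21 and 0.07, and Slc7a5 between -0.09 and 0.00. In BORG minus parental, 1 member was called higher and 3 lower. The count of higher calls was 2 with a variance trend, with quantile normalization and with median centring, 3 among clusters above the median signal, 5 with only the brightest cluster of each gene or the mean of a gene's clusters, and 0 with the methods' t-test after Benjamini-Hochberg; leaving out 1 array gave 0 to 2. The count of lower calls was 1 with only the 4 arrays of the groups compared, 5 with only the brightest cluster or the mean of clusters, and 0 with the t-test after adjustment (3 higher and 6 lower before it); leaving out 1 array gave 0 to 10.

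In BORG/sgTRIM28 minus BORG, 3 members were called higher and 4 lower. The t-test after adjustment gave 0 and 0 (7 higher and 3 lower before it). At an unadjusted p under 0.05, the t-test gave 8.93% of all genes higher and 9.81% lower in BORG minus parental. In BORG/sgTRIM28 minus BORG it gave 10.2% and 9.22% of all genes. The member counts before adjustment were not tested against these shares. The count of members called lower was 2 with only the 4 arrays and 7 with only the brightest cluster. It was 2 when the call asked for 2-fold and a limma p under 0.05 before adjustment. Both the higher and the lower count also moved with 1 array left out, as did those over all clusters. At 2-fold with an unadjusted t-test p under 0.05, the study's cut-off and a rule chosen after seeing the data, 1 member was lower in BORG minus parental, and 1 was higher and 2 were lower in BORG/sgTRIM28 minus BORG.

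In BORG/sgTRIM28 minus parental the counts after adjustment were 0 and 0 in every limma or t-test setting, as they were under both rules that ask for 2-fold; at an unadjusted p under 0.05 with no fold, limma gave 2 higher and 4 lower and the t-test 2 higher and 7 lower.

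With the replicate number as a block, 1 member was lower in BORG minus parental and 2 were lower in BORG/sgTRIM28 minus BORG. Same-numbered arrays share only a number: the correlations of their deviations from the group means were 0.041, -0.041 and -0.015, so the numbers were not taken to pair the samples.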
